A study of Mus musculus with 13 samples.

Results

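Collagens are triple-helical proteins of the extracellular matrix, each assembled from 3 chains that one gene or several encode. The fibrillar collagens pack into the rope-like fibrils of stroma, cartilage and bone. Type IV collagen forms the sheet-like network of the basement membrane, the thin matrix that lies under mammary epithelium, and types VII, XV and XVIII sit in or beside that membrane. The remaining collagens decorate fibrils, form microfilaments or short-chain networks, or span the cell membrane. The collagen chain genes other than type I were described here in cell lines from mouse mammary tumours with and without the JNK kinases. JNK, the c-Jun N-terminal kinase, phosphorylates the transcription factor c-Jun, a part of AP-1. Members were the genes of the 2 deposited tables named Col, a number, a and a number, without Col1a1 and Col1a2 (type I) and Col17a1 (a collagen of hemidesmosomes). This gave 41 of 44 collagen chain genes among 23845 genes in all. By collagen type, 9 were fibrillar, 9 belonged to the basement membrane (types IV, VII, XV and XVIII) and 23 were of other types.

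RNA-seq libraries were made from 13 primary mammary tumour lines of FVBN/J mice. The genotype label was wild type (WT) for 6 lines and JNK knockout for 7, and the labels hold no other treatment and no animal ages. All lines were first grown in 2% fetal bovine serum on plates coated with collagen I and, after 2 passages, on standard dishes with EGF (20 ng/ml), insulin (10 μg/ml) and the serum raised to 10%, so the cells that were sequenced had met purified collagen in culture. The labels name neither the deleted JNK genes or exons, nor a Cre driver, nor the oncogene behind the tumours, and they do not say whether lines came from separate animals. The titles of WT replicates 4 and 5 share a number, so the p-values cover the variation among these lines and no more. Titles of the groups start with different letters, so a difference of colony or handling cannot be told apart from genotype.

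Each line held between 38298602 and 46689809 expected counts. As a check of the labels, Mapk8 (JNK1) was 24.0 to 37.3 CPM (read counts scaled to a common library size) in WT and 4.33 to 8.33 CPM in knockout lines, and Mapk9 (JNK2) was 55.0 to 73.1 and 8.90 to 24.7 CPM. Epithelial markers summed to between 7185 and 10080.3 TPM (a level scaled for gene length) in WT lines and between 1207 and 6559 TPM in knockout lines, lowest in knockout replicate 2. All 7 endothelial markers stayed under 1 TPM in every line, as did 5 of 11 fibroblast markers (Lum, Fap, Dpt, Pi16 and Clec3b). The fibroblast list summed to 5.92 to 27.6 TPM in WT lines. The 7 basal or myoepithelial markers summed to 577 to 23390.4 TPM in knockout lines, all above the 69.2 to 310.0 TPM of the WT lines. Of the 7, 4 were called higher in the edgeR test described below (57.1%, against 4.33% of all genes tested). A further 1 went the other way without a call (log2 fold change, knockout minus WT, of -3.58). Of the 8 epithelial markers, 2 were called lower (25.0%, against 4.17% of all genes tested) and 0 higher. A pair of lines stood apart in their collagens, WT replicate 3 and knockout replicate 2. WT replicate 3 was the highest WT line for 15 of the 27 members with enough reads for a test (55.6%), against 25.7% of all genes tested. Knockout replicate 2 was the highest knockout line for 9 of 27 (33.3%), against 20.3% of all genes. The sum of 4 Schwann cell markers was 417 TPM in WT replicate 3, 203 TPM in WT replicate 2, 36.2 to 71.4 TPM in the remaining WT lines and 1.88 to 53.8 TPM in knockout lines, with Foxd3 at 0 in every line. Knockout replicate 2 had the highest sums of the 10 mesenchymal markers (4531 TPM, against 93.3 to 1417 TPM in the other knockout lines and 392 to 1635 TPM in WT), the 11 fibroblast markers (125 TPM, against 4.59 to 45.6 TPM in the other knockout lines) and the 7 basal markers (23390.4 TPM, against 577 to 5383 TPM). The part of these marker levels in the results below was not tested. Many results that rest on either line are given with and without it, or with their range when each line is left out.

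Basement membrane genes held more than 50% of the summed TPM of the members in 4 of 6 WT lines and in all 7 knockout lines, from 18.6% to 71.9% in WT and from 66.0% to 79.3% in knockout lines. WT replicates 2 (47.1%) and 3 (18.6%) were the exceptions. Col18a1, whose protein carries endostatin at its end, had the highest TPM of the 41 members in 12 of 13 lines. It made up between 3.26% and 53.7% of the summed member TPM in WT lines (median 37.6%) and between 25.9% and 70.1% in knockout lines (median 56.3%). It was not the highest member in WT replicate 3, where Col9a1, a chain of a collagen that coats cartilage fibrils, made up 43.7%. Averaged over all lines, Col18a1 was at 248 TPM, Col9a1 at 61.7, the short-chain network gene Col8a1 at 59.6, the fibrillar gene Col11a1 at 36.4, and Col4a2, Col4a1 and Col4a5 at 30.6, 30.1 and 28.0 TPM. The means of Col9a1 and Col11a1 rested on WT replicate 3. Without that line they were 3.19 and 16.7 TPM, below Col4a5, Col4a2 and Col4a1 at 26.9, 26.1 and 23.2 TPM.

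Summed over all 41 members, WT lines held 454, 622 and 1748 TPM (lowest, median and highest) and knockout lines 222, 467 and 917 TPM. The groups overlapped widely, and WT replicate 3 was the highest line. Fibrillar genes gave 55.5, 78.4 and 347 TPM in WT and 13, 21.2 and 100.4 TPM in knockout lines, where knockout replicate 2 alone exceeded 36.0 TPM. As a share of the members' TPM, fibrillar genes took between 8.87% and 21.4% in WT and between 2.07% and 10.9% in knockout lines, so that 1 WT line (replicate 6) lay below 1 knockout line (replicate 2). The basement membrane genes together gave 319, 324 and 458 TPM in WT lines, a narrow range, and 159, 308 and 679 TPM in knockout lines. These sums are descriptions without a test. In RNA of whole cultures, fewer cells that use a gene cannot be told apart from less RNA per cell.

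**Figure D1:**
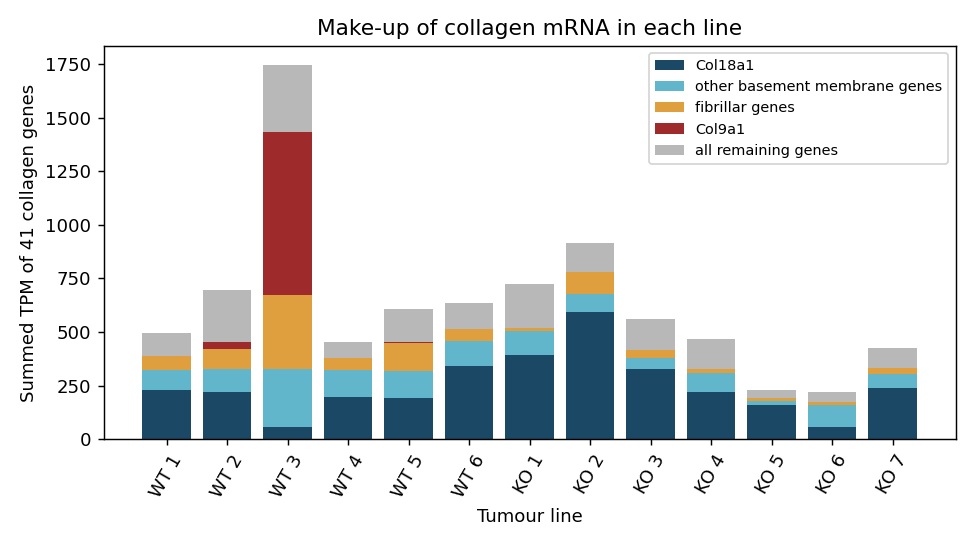
Summed TPM of the 41 collagen genes in each of the 6 WT and 7 JNK knockout lines, stacked as Col18a1, the other basement membrane genes, the fibrillar genes, Col9a1 and all remaining genes. Col18a1 is the single gene with the highest TPM in 12 of 13 lines, though bands that pool several genes can be thicker. WT replicate 3, at 1748 TPM, is set apart by its Col9a1.

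**Figure D2:**
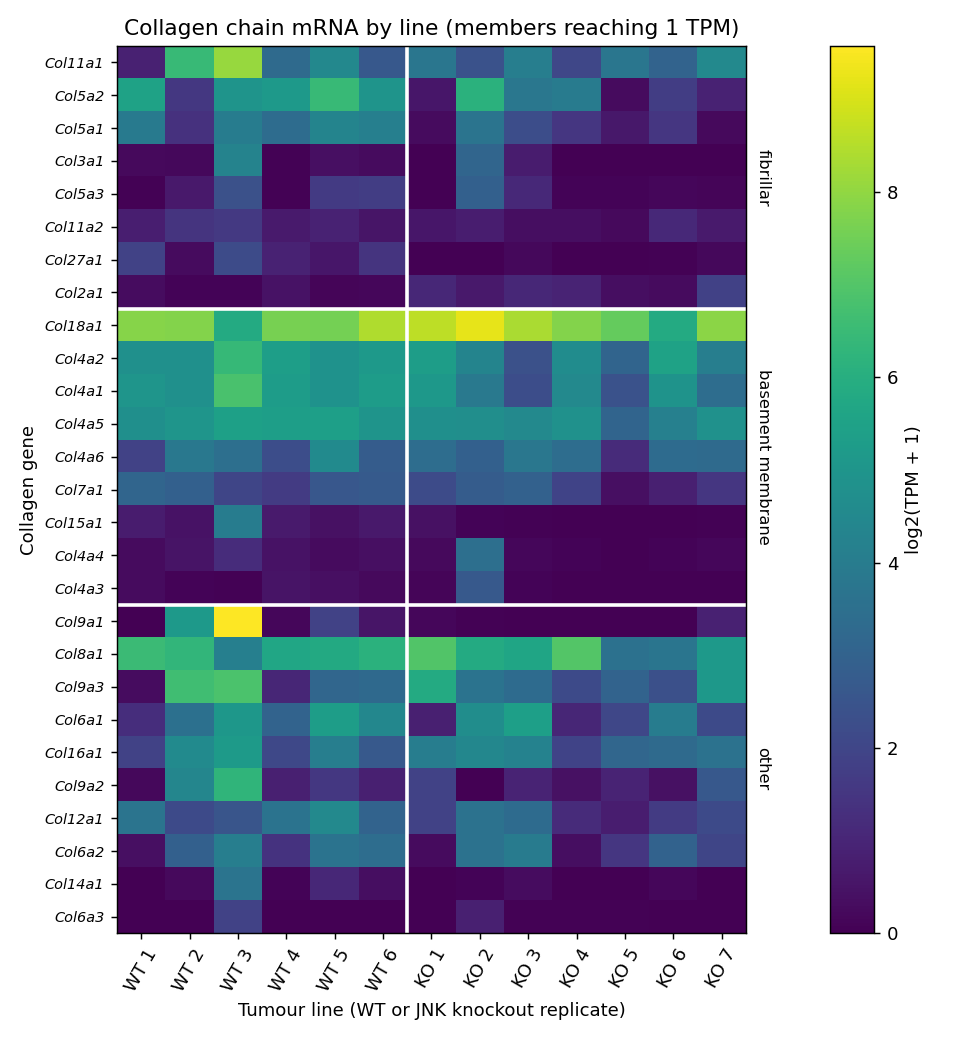
Level of the 27 members that reached 1 TPM in at least 1 line, as log2(TPM + 1), by line and by class (fibrillar, basement membrane, other, each sorted by mean TPM). Many rows vary as much within a group as between the groups, and WT replicate 3 and knockout replicate 2 hold most of the isolated high values, such as Col9a1 at 763 TPM and Col4a4 at 10.2 TPM.

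Between JNK knockout and WT lines, 3 collagen genes passed the test. Col27a1 and Col15a1 were lower in knockout lines and Col2a1 was higher. Enough reads for a test were present in 27 of the 41 members (8 of 9 fibrillar, 9 of 9 basement membrane and 10 of 23 other), so 3 of 27 (11.1%) were called at an adjusted p under 0.05 with edgeR's quasi-likelihood test, against 8.51% of the 13058 genes tested. By direction, 2 members were lower, against 4.17% of all genes, and 1 was higher, against 4.33%. The share called among the collagens was therefore close to that of all genes. By class, 2 of 8 tested fibrillar genes, 1 of 9 basement membrane genes and 0 of 10 other genes were called. At an unadjusted p under 0.05 the counts were 4, 3 and 2, and 8 of those 9 genes were lower. That is 33.3% of the tested members, against 26.3% of all genes tested, of which 47.8% were lower. Counts were similar by other routes. DESeq2 and limma-voom each called 1 member higher and 1 lower, against 16.1% and 7.35% of all genes in either direction. On log2(TPM + 1) 0 were higher and 2 lower (9.83% of all genes), and with no filter on low counts 1 was higher and 3 lower (5.89%). Without WT replicate 3 or knockout replicate 7, 1 was higher and 1 lower (6.66% and 5.02% of all genes). Without knockout replicate 2, 1 was higher and 4 lower (8.84%).

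The log2 fold changes (knockout minus WT throughout) of the tested members had a median of -0.72, against 0.01 over all genes tested. They were below 0 for 21 of 27 members. The median was -1.26 for the fibrillar genes (7 of 8 below 0), -0.49 for the basement membrane genes (6 of 9) and -0.63 for the others (8 of 10). Leaving out WT replicate 3 moved the median of all members to -0.32. The class medians then were -0.68 (fibrillar), -0.32 (basement membrane) and -0.11 (other). Leaving out knockout replicate 2 moved the median of all members to -0.92, and the class medians to -2.61, -0.75 and -0.67 in that order. Collagen genes also varied strongly among lines of a group. The SD of log2(CPM + 0.5) had a median of 1.15 over the tested members in WT lines and again in knockout lines. Over all genes tested it was 0.36 and 0.42. The offset of 0.5 shrinks the SD of genes at low CPM. In WT lines 14 of the 27 members lay above the 90th percentile of that SD, and in knockout lines 13 did. Col4a5 varied least among WT lines (SD 0.32) and Col9a3 most (SD 3.15).

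**Figure D3:**
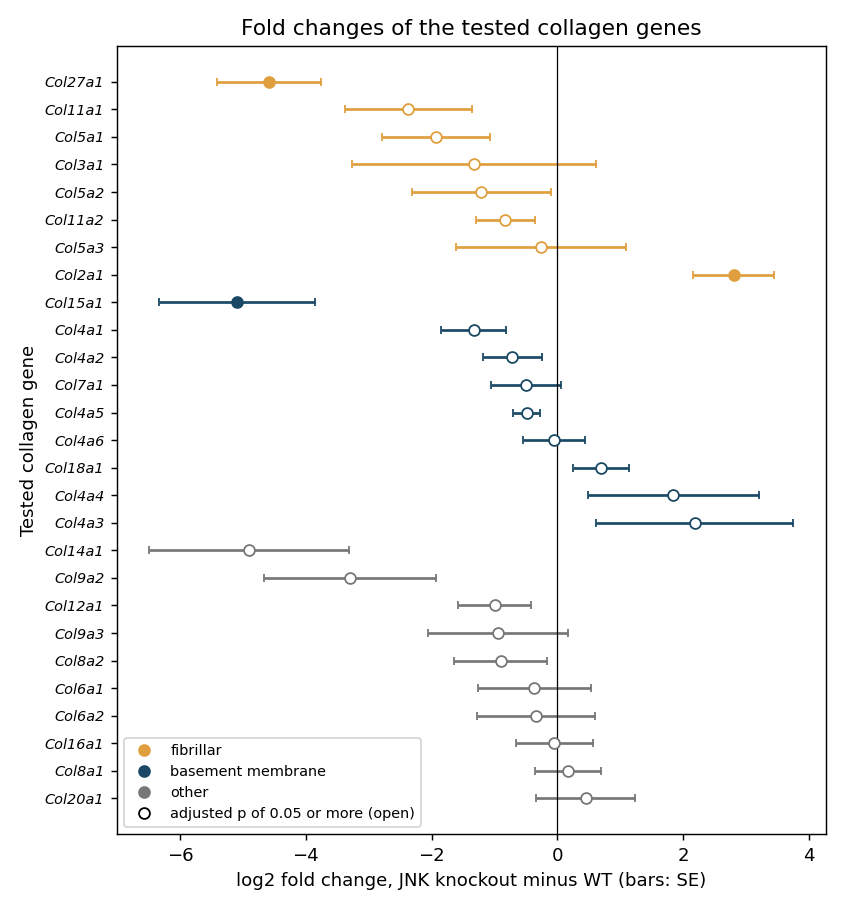
Log2 fold change (JNK knockout minus WT) of the 27 tested collagen genes with its SE, by class. Filled points are the 3 genes past an adjusted p of 0.05, and 21 of 27 points lie left of 0.

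Among the fibrillar genes, Col27a1, which encodes a fibrillar chain best known from cartilage, was lower in every knockout line. It was 11.1, 0.866, 16.5, 3.57, 2.02 and 7.67 CPM in WT replicates 1 to 6 and 0.0749, 0.105, 0.722, 0.0762, 0.135, 0.151 and 0.732 CPM in knockout replicates 1 to 7. The groups did not overlap, as for 1.97% of all genes in this direction, and WT replicate 2 lay closest to the knockout lines. The log2 fold change was -4.59 (SE 0.83, adjusted p = 0.0079). Leaving out each line in turn gave values from -5.02 to -4.13, all called. The gene was low in absolute terms, with a WT median of 1.30 TPM, 1705 reads in all WT lines together and 85 in all knockout lines.

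Col2a1, the chain of the main fibrillar collagen of cartilage, moved the other way. It was 0.661, 0.187, 0.162, 1.03, 0.245 and 0.355 CPM in the WT lines and 3.45, 1.78, 3.30, 2.77, 1.24, 0.671 and 8.43 CPM in the knockout lines. Knockout replicate 6, at 0.671 CPM, lay below WT replicate 4 and just above WT replicate 1, and every other knockout line lay above all WT lines. The log2 fold change was 2.80 (SE 0.65, adjusted p = 0.020), from 2.31 to 3.25 with each line left out, all called. The level stayed under 3 TPM in every line. With a pseudocount of 1 on TPM the call was lost (log2 fold change 0.68, adjusted p = 0.064).

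Types V and XI share chains and start the fibrils of type I and type II collagen, respectively, and Col11a1, Col5a2 and Col5a1 were the 3 fibrillar members with the highest mean TPM. Col5a1 was 7.28, 70.1 and 85.1 CPM in WT (lowest, median and highest) and 0.954, 9.28 and 65.3 CPM in knockout lines. All knockout lines but replicate 2 lay at or below 19.5 CPM, and all WT lines but replicate 2 at or above 43.4 CPM. Its fold change, -1.93 on the log2 scale (SE 0.86, adjusted p = 0.17), was not called. Without knockout replicate 2 it passed (-3.01, adjusted p = 0.029), as it did on log2(TPM + 1) (-2.08, adjusted p = 0.044). Its partner Col5a2 was 7.14, 121 and 304 CPM in WT and 1.38, 9.11 and 291 CPM in knockout lines. Its log2 fold change was -1.21 (SE 1.10, adjusted p = 0.51), from -2.72 to -0.82 with each line left out. Both genes were thus low in WT replicate 2 and high in knockout replicate 2, and for Col5a2 no line left out brought a call. Col5a3 was lower in level, at most 25.8 CPM, again in knockout replicate 2 (log2 fold change -0.26, SE 1.35, adjusted p = 0.92).

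Col11a1 was 3.28, 343, 1192, 35.5, 82.8 and 22.4 CPM in the WT lines and between 13.6 and 104 CPM in the knockout lines, with nearly equal medians of 59.1 and 58.1 CPM. The log2 fold change of -2.37 (SE 1.01, adjusted p = 0.15) compares means and rested on WT replicates 2 and 3. Without WT replicate 3 it was -0.84 (adjusted p = 0.56). Col11a2 was 1.42 to 6.71 CPM in WT and 0.914 to 3.76 CPM in knockout lines (-0.83, SE 0.47, adjusted p = 0.27).

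Col3a1, the chain of the reticular fibrils of soft tissue, was present in single lines. WT replicate 3 held 61.4 CPM and knockout replicate 2 held 27.7 CPM, against at most 0.917 CPM in the other WT lines and 2.16 CPM in the other knockout lines. In 4 knockout lines there was no read of it. The log2 fold change was -1.32 (SE 1.94, adjusted p = 0.71) and turned to 3.02 without WT replicate 3 (adjusted p = 0.38). Col24a1 had too few reads to test, at most 0.652 CPM.

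**Figure D4:**
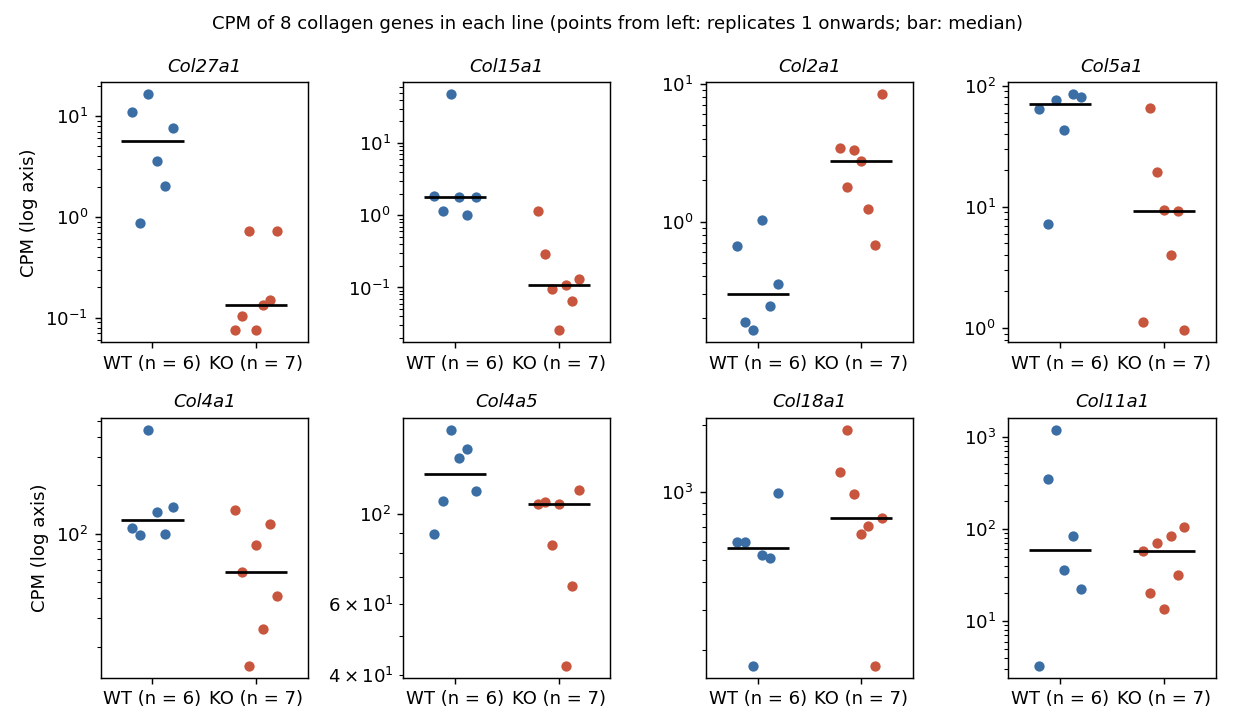
CPM of 8 collagen genes in each line on log axes, with the median of each group as a bar. Col27a1 shows groups that do not overlap, Col15a1 is high in 1 WT line (47.8 CPM), Col5a1 overlaps through 1 line of each group, and Col11a1 has equal medians with high values in WT replicates 2 and 3.

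Among the basement membrane genes, Col15a1 was lower in knockout lines. Its protein is a collagen that carries glycosaminoglycan chains and bridges the basement membrane to neighbouring fibrils. It was 1.84, 1.15, 47.8, 1.78, 1.02 and 1.77 CPM in the WT lines and 1.15, 0.288, 0.0962, 0.0254, 0.108, 0.0649 and 0.133 CPM in the knockout lines. Knockout replicate 1 reached the lower WT values, and the other 6 knockout lines lay below every WT line. The log2 fold change was -5.10 (SE 1.24, adjusted p = 0.024). WT replicate 3 set much of its size: without it the value was -2.50 and no longer called (adjusted p = 0.066). The call was also lost without knockout replicate 7 (-4.99, adjusted p = 0.053), with limma-voom (-4.04, adjusted p = 0.059) and on log2(TPM + 1) (-1.07, adjusted p = 0.15), and DESeq2 gave no adjusted p.

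Promoter windows of the 2 genes that were lower are shown because c-Jun, the substrate of JNK, binds as part of AP-1 to TGANTCA. Each window runs from 250 bases before to 50 bases after an annotated transcription start. It is given 5′ to 3′ on the gene's strand, in RefSeq annotation of GRCm38.p6. The window of Col15a1 lies at chr4:47207762-47208061 and that of Col27a1 at chr4:63215162-63215461, both on the plus strand. The RefSeq gene positions begin upstream of these windows, at 47207655 for Col15a1 and 63214009 for Col27a1. Promoter letters at those upstream positions were not searched. Capitals mark matches to GC boxes (GGGCGG) on either strand.
Col15a1: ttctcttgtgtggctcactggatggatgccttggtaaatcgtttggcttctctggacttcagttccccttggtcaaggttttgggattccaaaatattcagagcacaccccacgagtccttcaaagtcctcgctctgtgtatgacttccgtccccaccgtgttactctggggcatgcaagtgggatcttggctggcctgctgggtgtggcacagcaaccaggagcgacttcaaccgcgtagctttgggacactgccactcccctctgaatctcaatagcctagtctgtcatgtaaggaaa
Col27a1: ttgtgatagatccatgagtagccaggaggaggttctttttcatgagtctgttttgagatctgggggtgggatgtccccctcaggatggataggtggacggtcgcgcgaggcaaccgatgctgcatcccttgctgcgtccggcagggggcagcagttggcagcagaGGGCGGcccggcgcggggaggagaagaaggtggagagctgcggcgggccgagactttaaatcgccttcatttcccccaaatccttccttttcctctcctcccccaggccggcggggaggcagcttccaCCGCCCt
Neither window held TGANTCA or the related TGACGTCA (CRE). Windows were found for 33 of the 41 members, in 36 windows, and none for Col2a1. TGANTCA, searched on both strands, was in 1 of the 36 (2.78%, Col6a1), against 7.81% of all 32851 promoters of the table, and TGACGTCA was in 1 (2.78%, Col24a1), against 1.79%. GC boxes were in 61.1% of member windows and 35.7% of all, CCAAT in 30.6% and 37.4%, and TATAAA in 11.1% and 13.6%. These matches are descriptions of these letters in these windows.

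The genes of the common type IV network, Col4a1 and Col4a2, stand head to head on chromosome 8. The starts used for their windows lie 21 bases apart on opposite strands. Their windows (chr8:11312777-11313076 on the minus strand and chr8:11312555-11312854 on the plus strand) overlap by 78 bases and are printed as the shared promoter of a pair whose ratio did not overlap between the groups. Capitals mark GC boxes and CCAAT on either strand.
Col4a1: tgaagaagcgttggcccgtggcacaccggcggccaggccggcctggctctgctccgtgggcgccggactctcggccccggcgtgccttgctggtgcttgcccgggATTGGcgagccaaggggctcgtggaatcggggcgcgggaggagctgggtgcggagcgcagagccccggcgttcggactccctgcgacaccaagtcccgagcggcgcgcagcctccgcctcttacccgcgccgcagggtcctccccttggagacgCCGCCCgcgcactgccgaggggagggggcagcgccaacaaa
Col4a2: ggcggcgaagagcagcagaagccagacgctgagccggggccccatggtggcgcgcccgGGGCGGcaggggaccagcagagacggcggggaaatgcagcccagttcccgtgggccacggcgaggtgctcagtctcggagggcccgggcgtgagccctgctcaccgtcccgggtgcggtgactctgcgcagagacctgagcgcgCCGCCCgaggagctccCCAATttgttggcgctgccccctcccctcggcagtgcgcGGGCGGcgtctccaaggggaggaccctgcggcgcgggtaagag
Neither held TGANTCA, TGACGTCA or TATAAA.

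Col4a1 was 98.7, 122 and 443 CPM in WT and 15.2, 57.7 and 139.9 CPM in knockout lines. Col4a2 was 91.2, 115 and 325 CPM in WT and 16.3, 77.9 and 170.4 CPM in knockout lines. WT replicate 3 was the highest line for both, knockout replicate 3 the lowest, and the groups overlapped. Neither was called, with log2 fold changes of -1.33 for Col4a1 (SE 0.52, adjusted p = 0.12) and -0.72 for Col4a2 (SE 0.47, adjusted p = 0.35). With each line left out in turn they ranged from -1.59 to -0.78 for Col4a1 and from -0.95 to -0.32 for Col4a2.

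The ratio of the chains is given as a description without a p-value, since the pairs were taken up after the ratios had been seen. The TPM of Col4a1 divided by that of Col4a2 was 1.15, 1.000, 1.32, 0.951, 0.980 and 1.08 in the WT lines and 0.857, 0.719, 0.908, 0.898, 0.587, 0.657 and 0.599 in the knockout lines. Every knockout line lay below every WT line. The share of other gene pairs whose ratios separate the groups in this way was not computed. The separation is therefore a description of these lines and not a result about this pair. The mean log2 ratio was 0.10 ± 0.18 (SD, n = 6) in WT and -0.44 ± 0.27 (SD, n = 7) in knockout lines, a difference of -0.55. Leaving out each line in turn gave differences from -0.60 to -0.49. The exons of the 2 genes overlap by 22 bases of 7464 and 6619, and the strand setting of the counting was not stated. A ratio does not tell which of the chains differed.

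For the other partner pairs the groups overlapped. The Col4a5 to Col4a6 ratio was 1.84 to 10.6 in WT and 1.66 to 5.94 in knockout lines (difference of mean log2 ratio -0.67). For Col5a1 to Col5a2 the difference was -0.10, with ratios of 0.219 to 0.797 and 0.127 to 2.30. For Col6a1 to Col6a2 it was -0.24, with ratios of 1.60 to 4.34 and 1.15 to 3.85.

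**Figure D5:**
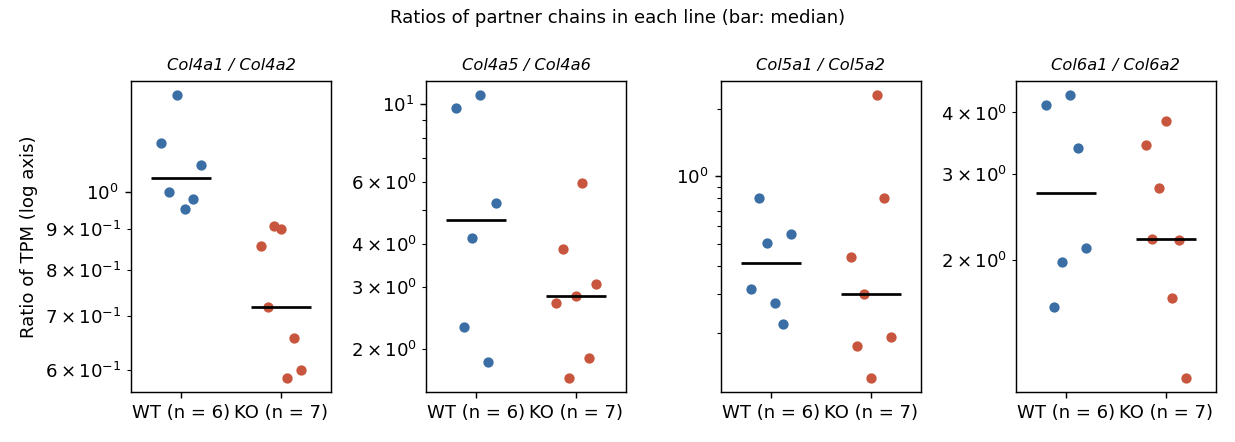
Ratio of TPM of 4 pairs of partner chains in each line on log axes, with the median of each group as a bar. The Col4a1 to Col4a2 ratio is at least 0.951 in the WT lines and at most 0.908 in the knockout lines, and the groups overlap for the other 3 pairs.

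The other type IV chains form tissue-restricted networks, with Col4a3, Col4a4 and Col4a5 in kidney and lung and Col4a5 with Col4a6 in other epithelia and smooth muscle. Col4a5 was 89.3, 126 and 162 CPM in WT and 42.2, 106 and 115 CPM in knockout lines, a small difference that was not called (-0.49 on the log2 scale, SE 0.22, adjusted p = 0.18). Col4a6 was 9.44, 31.4 and 80.7 CPM in WT and 7.49, 38.4 and 52.0 CPM in knockout lines (-0.05 on the log2 scale, SE 0.49, adjusted p = 0.96). Col4a3 and Col4a4, which also lie head to head, were high in 1 line only: knockout replicate 2 held 30.2 CPM of Col4a3 and 51.7 CPM of Col4a4, while the other knockout lines reached 0.574 and 0.849 CPM and the WT lines 1.94 and 6.30 CPM. The log2 fold changes of 2.18 and 1.84 (SE 1.57 and 1.36, adjusted p = 0.40 and 0.42) turned to -2.46 (adjusted p = 0.097) and -2.30 (adjusted p = 0.033) without that line.

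Col18a1 was 169.9, 564 and 992 CPM in WT and 170.4, 773 and 1901 CPM in knockout lines (difference of 0.69 on the log2 scale, SE 0.45, adjusted p = 0.35). Its highest value was in knockout replicate 2 and its lowest in WT replicate 3. Col7a1, the chain of the anchoring fibrils that fasten the basement membrane to stroma, was 10.7 to 38.3 CPM in WT and 2.54 to 38.2 CPM in knockout lines (-0.50, SE 0.55, adjusted p = 0.59).

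None of the 10 tested genes of other types passed edgeR's test, 2 had an unadjusted p under 0.05, and DESeq2 and limma-voom called none of them either. Col9a1, Col9a2 and Col9a3 encode the chains of type IX collagen, which coats type II fibrils. Col9a1 was 1358 CPM in WT replicate 3, 55.2 CPM in WT replicate 2 and 4.28 CPM in WT replicate 5, and at most 1.62 CPM in the remaining 10 lines. Its reads, 53038 over WT and 85 over knockout lines, stood in too few lines for the filter of the test. Without a filter the edgeR log2 fold change was -9.69 (adjusted p = 0.030). WT replicate 3 held most of those WT reads, and the fit without a filter was not repeated without that line. The value thus describes mainly 1 WT line. Col9a2 followed the same lines, with 118 CPM in WT replicate 3 and 28.4 CPM in WT replicate 2. The other WT lines reached 2.73 CPM and the knockout lines 8.68 CPM. The log2 fold change of Col9a2 was -3.30 (SE 1.37, adjusted p = 0.14), from -4.04 to -1.40 with each line left out. Col9a3 was 188 and 145 CPM in those 2 WT lines and 0.354 to 13.8 CPM in the others, but 5.59 to 97.6 CPM in knockout lines (-0.94, SE 1.11, adjusted p = 0.63). The Col9a3 to Col9a2 ratio of TPM was 1.30 to 11.4 in WT and 6.42 to 21.2 in knockout lines other than replicate 2, where Col9a2 was at 0.0262 CPM, too few reads for a ratio. Of the 8 chondrocyte markers, Hapln1, Matn1 and Matn3 stayed under 1 TPM in every line, and the list summed to 75.1 to 192 TPM in WT, highest in replicate 3, and to 65.3 to 213 TPM in knockout lines.

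Col14a1 and Col12a1 encode collagens that sit on the surface of type I fibrils. Col14a1 was 45.1 CPM in WT replicate 3, at most 3.69 CPM in the other WT lines and at most 0.986 CPM in knockout lines (-4.90 on the log2 scale, SE 1.59, adjusted p = 0.072), and the value was -1.97 without WT replicate 3. Col12a1 was 22.7, 62.1 and 137 CPM in WT and 7.44, 20.2 and 85.0 CPM in knockout lines (-1.0, SE 0.58, adjusted p = 0.29). Their relatives Col16a1 and Col20a1 gave -0.05 (SE 0.61, adjusted p = 0.97) and 0.45 (SE 0.79, adjusted p = 0.76). Col8a1, of the hexagonal network type VIII, was 50.3, 176 and 244 CPM in WT and 36.8, 146 and 399 CPM in knockout lines (0.17 on the log2 scale, SE 0.53, adjusted p = 0.87). Its partner Col8a2 reached at most 2.25 CPM (-0.90, SE 0.74, adjusted p = 0.47).

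Type VI collagen forms beaded microfilaments from Col6a1, Col6a2 and a further chain. Col6a1 was 2.81, 34.6 and 81.2 CPM in WT and 1.95, 10.9 and 97.7 CPM in knockout lines (-0.37 on the log2 scale, SE 0.90, adjusted p = 0.83), and Col6a2 was 0.637, 16.9 and 35.3 CPM and 0.524, 6.95 and 32.5 CPM (-0.34, SE 0.94, adjusted p = 0.85). Both genes were lowest in WT replicate 1 among WT lines and in knockout replicate 1 among knockout lines. Col6a3, the usual partner of both, was 15.9 CPM in WT replicate 3, 4.98 CPM in knockout replicate 2 and at most 0.297 CPM elsewhere, too few lines for the test, and its alternatives Col6a4, Col6a5 and Col6a6 were at most 0.289 CPM. The other untested members (Col10a1, Col13a1, Col19a1, Col22a1, Col23a1, Col25a1, Col26a1 and Col28a1) stayed at or under 0.889 CPM. Col13a1 and Col26a1 had 0 reads in the WT group, which allows up to 0.0116 CPM, and Col19a1 and Col6a6 had 0 reads in the knockout group, which allows up to 0.0104 CPM (3 reads over a group, counting error only).

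Genes whose products process, crosslink or bind collagens were read in the same fit. Over all genes tested, 4.17% were lower and 4.33% higher. Of 14 tested genes of procollagen cleavage and crosslinking, 4 were lower (28.6%) and 0 higher, with a median log2 fold change of -1.44, against 0.01 over all genes. Bmp1, the protease that removes the C-terminal propeptide, was 203, 287 and 336 CPM in WT and 61.7, 79.3 and 142 CPM in knockout lines (-1.58, SE 0.22, adjusted p = 0.0020). The lysyl oxidases Loxl1 and Loxl2, which crosslink collagen and elastin, gave -3.41 (SE 0.67, adjusted p = 0.010) and -4.27 (SE 0.92, adjusted p = 0.015). For Bmp1, Loxl1 and Loxl2 every knockout line lay below every WT line, as for 1.97% of all genes. Other members of the list, chosen here after their values were seen, had positive values that were not called: Lox (34.3, 101 and 173 CPM in WT and 151, 177 and 1231 CPM in knockout lines, 1.70, SE 0.59, adjusted p = 0.089), Loxl4 (0.725, 12.8 and 40.0 CPM and 6.41, 99.4 and 182 CPM, 2.66, SE 0.85, adjusted p = 0.068) and Tll1 (3.63, SE 1.39, adjusted p = 0.12). Pcolce2, an enhancer of Bmp1, gave -2.46 (SE 0.58, adjusted p = 0.021), with overlapping groups. Loxl2 was 24.5 CPM in WT replicate 3 and 0.686 to 3.49 CPM in the other WT lines, against at most 0.508 CPM in knockout lines, and gave -2.57 without that line (adjusted p = 0.024). All 4 stayed called with each line left out, and limma-voom and log2(TPM + 1) lost Loxl2.

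Of 19 tested genes of collagen modification and folding, 2 were lower and 0 higher (10.5% called, against 8.51% of all genes). They were Plod3, a lysyl hydroxylase and glycosyltransferase (90.9 to 133 CPM in WT and 60.6 to 98.5 CPM in knockout lines, -0.50 on the log2 scale, adjusted p = 0.031), and P4ha3, a prolyl hydroxylase subunit (-2.26, adjusted p = 0.048). With 1 line left out, Plod3 stayed called in 7 of 13 fits and P4ha3 in 2, and neither was called with WT replicates 4 and 5 summed (adjusted p = 0.050 and 0.075). Of 8 tested collagen receptors, 2 were lower (25.0%, against 4.17% of all genes) and 0 higher: Itga11, the integrin chain of fibroblasts that binds fibrillar collagen (-4.41, adjusted p = 0.032), and Ddr2, a receptor kinase for fibrillar collagen (-3.80, adjusted p = 0.049). Ddr2 was 30.7 CPM in WT replicate 3 and at most 1.51 CPM in any other line, and without that line its log2 fold change was -1.24 (adjusted p = 0.26). With 1 line left out, Itga11 stayed called in 6 of 13 fits and Ddr2 in 2, in neither case without WT replicate 3.

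Of 18 tested basement membrane genes other than collagens, 2 were lower and 1 higher (16.7% called, against 8.51% of all genes). Smoc1, a calcium-binding basement membrane protein, was 13.6, 38.9 and 65.8 CPM in WT and 0.356, 1.78 and 5.42 CPM in knockout lines without overlap, as for 1.97% of all genes (-4.12, SE 0.58, adjusted p = 0.0022). Papln (papilin) gave -5.26 (SE 1.16, adjusted p = 0.016), with 954 CPM in WT replicate 3, and -3.24 without that line. Lama3, the laminin chain of the hemidesmosomal basement membrane, was the gene that was higher, at 0.269, 2.17 and 5.02 CPM in WT and 2.34, 42.6 and 116 CPM in knockout lines (4.23, SE 0.94, adjusted p = 0.017). With limma-voom neither Lama3 (adjusted p = 0.15) nor Papln (adjusted p = 0.070) was called. Of 13 tested fibril-associated matrix genes, Bgn (biglycan) alone was called, lower (7.69% of the list, against 8.51% of all genes in either direction; -5.34, SE 1.37, adjusted p = 0.031), with 139 CPM in WT replicate 3. Without that line it gave -2.28 and was not called (adjusted p = 0.11), nor was it with limma-voom (adjusted p = 0.14) or on log2(TPM + 1) (adjusted p = 0.096). It stayed called in 8 of 13 fits with 1 line left out.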

How the data were processed

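Total RNA of 13 lines was sequenced as paired reads of 150 bases. Per the submitters' processing notes, the authors trimmed reads with cutadapt and quantified genes with RSEM on mm10 (GRCm38). They deposited expected counts per gene and TPM for the same genes and lines. The sources used here name no aligner, annotation, strand setting or version. RSEM divides reads shared by similar genes by a model.

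Expected counts were rounded, filtered with filterByExpr and scaled by TMM. The test was the quasi-likelihood F test of edgeR 4.0.16 in R 4.3.3, fitted on group alone, with Benjamini-Hochberg adjustment over all 13058 genes and a threshold of 0.05. SEs are the fold change divided by the square root of F. Depth of 38298602 to 46689809 counts per line left the spread between lines as the main error (biological coefficient of variation 0.5476). Alternatives were DESeq2 1.42.0, limma-voom and limma 3.58.1 on log2(TPM + 1) or log2(TPM + 0.1), other scalings and filters, and left-out lines. Ratios of chains are given as descriptions. A test over splits of the lines into groups was run for 4 pairs. Its p-values are left out because the pairs were chosen after the ratios had been seen.

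Members, lists and tests were chosen with earlier results of these data known. Named genes were those past the threshold, per class the 4 with the highest mean TPM and the 2 largest changes among the rest, partner chains, and up to 4 called genes per pathway list, and all other members by range. Marker lists also covered pericyte, leukocyte and adipocyte genes: they summed to 36.0 to 84.8, 75.2 to 253 and 0 to 3.44 TPM in WT and to 10.6 to 66.7, 10.5 to 611 and 0.130 to 3.27 TPM in knockout lines. Some markers are not reported here. Gene positions and promoters are RefSeq's.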

Additional observations from a re-analysis of the deposited data

Results flagged for a closer look

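Dixon's gap on log2(CPM + 0.5) was taken in 54 groups (27 tested genes in 6 WT or 7 knockout lines). In 12 of them it set the highest or lowest line apart from the rest. The nominal rate is about 1 in 20 for a single group. The share over all genes tested was not computed, and the groups reuse the same lines and hold partner genes. The count of 12 is therefore a description and not a result about collagens. WT replicate 3 accounted for 5 of the 12. It was the highest WT line for Col15a1 (47.8 CPM, next 1.84), Col3a1 (61.4 CPM, next 0.917), Col4a1 (443 CPM, next 146), Col4a2 (325 CPM, next 139) and Col4a4 (6.30 CPM, next 1.78). Knockout replicate 2 accounted for 3, as the highest knockout line for Col3a1 (27.7 CPM, next 2.16), Col4a3 (30.2 CPM, next 0.574) and Col4a4 (51.7 CPM, next 0.849). WT replicate 2 was the lowest WT line for both type V partners, Col5a1 (7.28 CPM, next 43.4) and Col5a2 (7.14 CPM, next 115). Knockout replicate 1 was the highest knockout line for Col15a1 (1.15 CPM, next 0.288), and knockout replicate 5 the lowest for Col4a6 (7.49 CPM, next 28.5).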

How the results depend on the processing

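No paired analysis was possible because the labels give no replicate numbers shared by the groups. Over all genes, 566 were higher and 545 lower, against 1130 and 977 with DESeq2, 286 and 998 on log2(TPM + 1), 322 and 981 on log2(TPM + 0.1), 96 and 116 at an adjusted p under 0.01, and 324 to 649 and 316 to 592 with a line left out. Collagen genes higher (1) fell to 0 on log2(TPM + 1) and at 0.01, and stayed at 1 with each line left out. Collagen genes lower (2) were 1 with DESeq2, limma-voom, the stricter filter (over 1 CPM in 6 or more lines, where Col27a1 was not tested) and 0.01, and 1 to 4 with a line left out: 1 without WT replicate 3 or knockout replicate 7, and 4 without knockout replicate 2 (Col27a1, Col15a1, Col5a1 and Col4a4).

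Among the pathway lists, modification and folding lower (2) was 1 with limma-voom and no filter, 0 at 0.01 and with WT replicates 4 and 5 summed, and 0 to 2 with a line left out. Cleavage and crosslinking was 2 higher and 8 lower with DESeq2, 1 lower at 0.01, and 0 to 1 higher with a line left out. Receptors lower (2) was 0 with limma-voom, the stricter filter and 0.01, 1 with no filter and without both WT replicate 3 and knockout replicate 2, and 0 to 2 with a line left out. Basement membrane genes other than collagens were 0 higher with limma-voom and at 0.01, and 1 lower with DESeq2, limma-voom and at 0.01. Fibril-associated genes higher (0) was 1 with DESeq2 and on both TPM scales, and 0 to 1 with a line left out. Lower (1), it was 0 with DESeq2, limma-voom, log2(TPM + 1) and 0.01, 3 with no filter, 2 with WT replicates 4 and 5 summed, and 0 to 2 with a line left out.

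Reversed log2 fold changes, with DESeq2, limma-voom and log2(TPM + 0.1) in that order, were -2.12, -1.92 and -0.35 for Col4a3 and -2.07, -1.13 and -0.62 for Col4a4. With limma-voom, log2(TPM + 1) and log2(TPM + 0.1) they were -0.13, -0.34 and -0.36 for Col8a1 and 0.83, 0.09 and 0.44 for Col9a3. Col4a6 was 0.15 with limma-voom and 0.04 with WT replicates 4 and 5 summed. Without both WT replicate 3 and knockout replicate 2, Col4a3 was -2.67, Col4a4 -1.61, Col8a1 -0.01 and Col4a6 0.04. With a line left out, values ranged from -4.84 to 3.02 for Col3a1, -2.46 to 2.50 for Col4a3, -2.30 to 2.53 for Col4a4, -0.12 to 0.36 for Col8a1, -0.25 to 0.37 for Col4a6, -2.49 to 0.39 for Col5a3 and -0.78 to 0.07 for Col6a2. The cause of these changes was not tested. Leaving out lines for the Col4a1 to Col4a2 ratio (-0.60 to -0.49) was chosen after seeing the data.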
